A study of Mus musculus with 8 samples.

Results

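The genes described here are Hif1a, Hk1, Hk2, Pfkfb3, Ldha, Pgk1, Aldoa, Eno1, Gapdh and Irg1, which encode the hypoxia-inducible factor HIF-1 alpha, 8 proteins of glucose breakdown and the enzyme that makes itaconate. They were chosen by name, as the rows of the count table that carry these symbols, and are 10 of its 23143 genes. RNA was sequenced from RAW264.7 cells, an established mouse macrophage line, in 1 unstimulated culture (0 min) and in 7 cultures that had received 100 ng/ml LPS, the endotoxin of Gram-negative bacteria that macrophages sense through TLR4, for 15, 30, 45, 60, 75 and 90 min or, at the longest, 120 min. Every time stands for 1 library, and differences between times thus lack a replicate check. The labels give the RNA fraction as cytoplasmic and the molecule as total RNA, and no other agent, genotype or cell type was part of this time course.

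Glycolysis splits glucose into pyruvate and yields ATP without oxygen, and macrophages activated by LPS are known for running it at a high rate. HIF-1 is a transcription factor of an alpha and a beta subunit that binds near genes of glycolysis; the alpha subunit is controlled to a large part through the stability of the protein, which an RNA measurement does not show. Irg1, listed today as Acod1, encodes aconitate decarboxylase, which takes cis-aconitate out of the TCA cycle and turns it into itaconate, an antibacterial and regulatory metabolite of activated macrophages.

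Total counts ranged from 100250892 to 159077286 per library. The ribosomal RNA precursor Rn45s took 8.18% to 9.11% of the counts in the libraries at 0, 30, 60 and 120 min and 12.96% to 20.53% in those at 15, 45, 75 and 90 min, and values are therefore also given within each of these sets. All 7 macrophage markers in the table had at least 100 counts in every library, with a summed level of 5599 to 6802 counts per 1e6 counts of the library (cpm). Of 10 markers of other cell types, Ncr1, Col1a1, Col1a2, Epcam and Hba-a1 had no count in any library, the highest count of the other 5 was 8, and their summed level was at most 0.0898 cpm.

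HIF-1 and related factors read the core letters ACGTG, with GCGTG as a second form, so the promoters of the 10 genes were searched for both. The windows ran from 250 bases before to 50 bases after each annotated start (RefSeq, GRCm38.p6), and 17 windows belonged to the 10 genes. On either strand, ACGTG was found for 9 of the 10 genes, all except Eno1, which had GCGTG. Either form stood in 15 of the 17 windows (88.2%), some of which overlap, against 43.8% of 32851 promoters of all genes. Counted by window, ACGTG was in 11 of the 17 (64.7%) and in 19.6% of all promoters. GCGTG was in 32.4% of all promoters. The GC content of the windows of the 9 genes other than Irg1 was 51.3% to 69.7%, with a median over all promoters of 52.7%, and a palindromic CACGTG holds ACGTG on both strands. A match describes the letters and does not show that a factor binds there. The examples below show the match, or its reverse complement, in capitals, read 5′ to 3′ on the strand of the gene: for the regulator itself, for the gene with the most matches (Ldha, 5 of ACGTG in 1 window), for the enzymes at the top and in the middle of the pathway, and for the gene that changed most.
Hif1a, first capital at -70 from the start, chr12:73907785-73907814, plus strand: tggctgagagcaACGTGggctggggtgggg
Hk2, at -52, chr6:82774489-82774518, minus strand: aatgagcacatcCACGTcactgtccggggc
Eno1, at -86, chr4:150237099-150237128, plus strand: ggccgcctcggtCACGCtcttctattggag
Pgk1, at -150, chrX:106186938-106186967, plus strand: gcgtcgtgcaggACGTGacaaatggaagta
Ldha, at -47, chr7:46845745-46845774, plus strand: ggcccagcctacACGTGggttcccgcacgt
Irg1, at -18, chr14:103046982-103047011, plus strand: tgtataaaggcaCACGTccactaaaggccc

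The Irg1 window differed from the others in a further respect. Its GC content was 47%, and it was the only 1 of the 17 that held TATAAA, the core of a TATA box, found in 13.6% of all promoters on either strand. In the next sequence the capitals mark TATAAA at -28, 10 bases before the ACGTG match shown above, with which the window overlaps.
Irg1, at -28, chr14:103046972-103047001, plus strand: ggagtgactgtgTATAAAggcacacgtcca
The consensus of NF-kappaB, a factor that LPS activates, matched in 1 window each of Hk1 and Pgk1 and in 8.46% of all promoters. No match says only that these letters are not in the windows searched.

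Of the 10 genes, Irg1 changed by far the most and Hif1a was the only other one that passed the test, while none of the 8 glycolysis genes was called at any time. Counts were scaled to each other by median-of-ratios size factors ("normalized counts"), and a gene was called higher or lower than at 0 min when an exact negative binomial test of the 2 libraries gave an unadjusted p under 0.05 and the log2 ratio lay beyond 0.5. Such a test compares 2 libraries, not conditions, and the 95% intervals given with ratios and levels cover counting error only. In RNA of a whole culture, less RNA per cell and fewer cells that make it cannot be told apart. No member was called higher at 15 min, when 0.295% of all genes with a count were. From 30 to 90 min 1 of the 10 was called higher, Irg1, against 1.14%, 3.8%, 3.43%, 4.77% and 5.79% of all genes in order of time. At 120 min 2 of the 10 were called higher, Irg1 and Hif1a, against 7.63%. None was called lower at any time, where the share of all genes was, in order of time, 0.164%, 0.202%, 1.5%, 2.36%, 3.48%, 4.42% and 6.7%. Among the 10494 expressed genes, meaning those that averaged 100 or more normalized counts over the libraries, all 10 members included, 4.05% were higher and 3.16% lower at 60 min, and 9.27% were higher and 8.52% lower at 120 min.

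**Figure D1:**
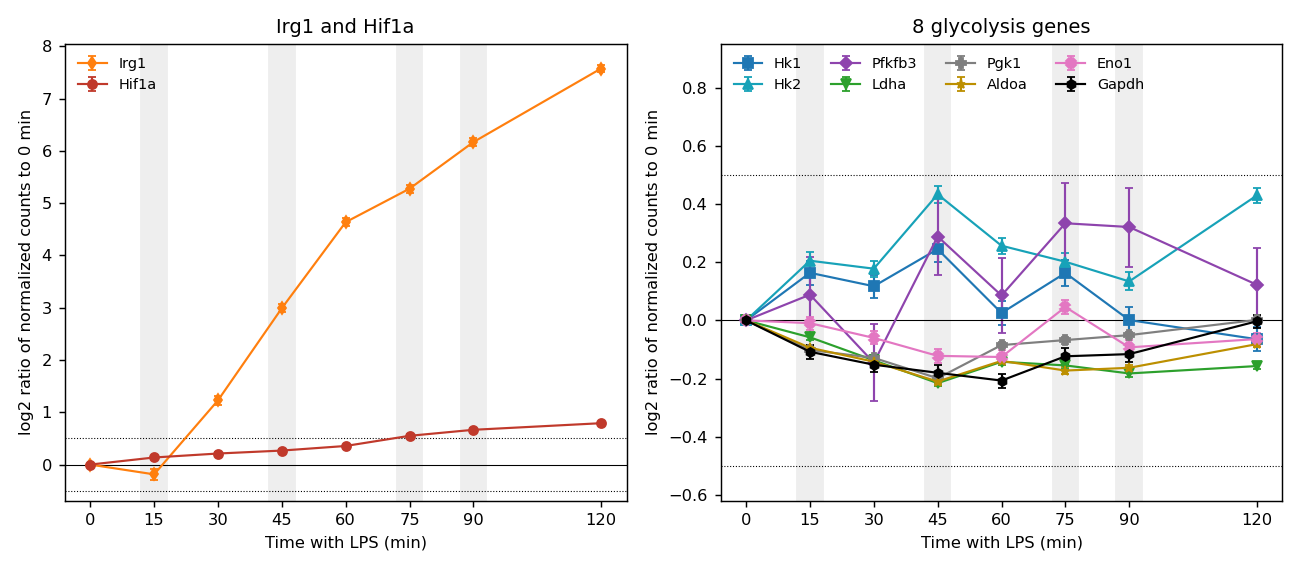
log2 ratio of normalized counts to 0 min (y axis) against time with LPS in min (x axis), with 1 library per point, for Irg1 and Hif1a (left) and the 8 glycolysis genes (right, finer scale). Bars are 95% intervals for counting error, dotted lines mark ±0.5, and grey bands mark the 4 libraries with a high Rn45s share. Irg1 reaches 7.58 and Hif1a 0.79 at 120 min, and all 8 glycolysis genes stay inside ±0.5.

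Hif1a (RefSeq NM_010431, chr12:73901324-73947554) was the regulator of the set and was moderately abundant before stimulation. Its normalized count was 15873 at 0 min and then, in order of time, 17436, 18378, 19112, 20312, 23241, 25170 and 27474. Each library thus lay above the one before it, a pattern seen in 239 (2.28%) of the expressed genes and in no other of the 10. The ratio to 0 min was 1.28 (1.26 to 1.30) at 60 min, 1.59 (1.55 to 1.62) at 90 min and 1.73 (1.70 to 1.76) at 120 min. The exact negative binomial test gave p = 0.125 at 75 min, p = 0.0615 at 90 min and p = 0.0237 at 120 min, so that the gene was called only at 120 min, and the adjusted p (Benjamini-Hochberg over all genes with a count, same test) was 0.208 there. With total counts as the scale the log2 ratio at 120 min was 0.59 in place of 0.79 and the gene was not called.

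The order of the libraries depended on the scale. In cpm, Hif1a stood at 142, 161, 170 and 213 in the low Rn45s libraries (0, 30, 60 and 120 min) and at 148, 150, 165 and 187 in the high ones (15, 45, 75 and 90 min). It was higher at every step within both sets, as were 421 of the 10494 expressed genes (4.01%), Irg1 among them, but the library at 45 min lay below that at 30 min and the library at 75 min below that at 60 min. Per length, Hif1a rose from 30.3 rpkm (29.9 to 30.8) at 0 min to 45.7 rpkm (45.2 to 46.2) at 120 min, where rpkm are counts per kilobase of unique 58-base words of the transcripts and per 1e6 counts. In rank by rpkm it moved from 2378 to 1557 of 19788 genes.

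The other HIF genes showed which partners were present. Arnt, the beta subunit of HIF-1, was at 7.43 rpkm at 0 min and 8.26 at 120 min (log2 ratio 0.35, p = 0.313 in the exact test), which is below the level of Hif1a in each library. Epas1, Hif3a and Arnt2, the alternative subunits, had at most 2 counts at 0 and 120 min. Egln1, a prolyl hydroxylase that marks HIF-1 alpha for degradation, was at 11.2 rpkm at 0 min and 6.74 at 120 min (log2 ratio -0.52, exact p = 0.135), and was not called. At 60 and 120 min 3.43% and 7.63% of all genes with a count were called higher, and 2.36% and 6.7% lower. Of 13 HIF subunits and regulators in the table, 1 was called higher and none lower at both times. At 60 min it was Siah2 (log2 ratio 0.72), a ubiquitin ligase that acts on the hydroxylases, and at 120 min Hif1an (0.71), the asparaginyl hydroxylase that blocks the activation domain of HIF-1 alpha. Siah2 lies outside the rule by which genes are named and was singled out after its value was seen.

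Hk1 and Hk2 encode the hexokinases that trap glucose in the cell as glucose 6-phosphate. Hk2, the inducible isozyme (chr6:82725025-82774454), had normalized counts of 16784 at 0 min and then 19348, 18985, 22663, 20052, 19301, 18417 and, at 120 min, 22607. All 7 stimulated libraries lay above 0 min, with ratios between 1.10 at 90 min and 1.35 at 45 and 120 min, but without an order in time, and the smallest exact p was 0.217. In cpm, which uses total counts as the scale, the libraries at 75 min (137) and 90 min (137) lay below 0 min (150). Hk1, the housekeeping isozyme (chr10:62268855-62379920), had 8023, 8986, 8703, 9507, 8165, 8983, 8029 and 7671 in the same order, and its ratio ranged from 0.956 at 120 min to 1.18 at 45 min. The lowest value of Hk1 was thus at 120 min, where Hk2 stood near its highest. Per length, Hk2 exceeded Hk1 by 1.77 times at 0 min and by 2.50 times at 120 min (27.4 and 15.5 rpkm at 0 min, 32.1 and 12.9 at 120 min). Hk3, a further hexokinase, was at 11.0 rpkm at 0 min and 10.6 at 120 min.

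Pfkfb3 makes fructose 2,6-bisphosphate, the strongest activator of phosphofructokinase, and was the scarcest of the 10 genes. Its raw counts lay between 745 at 75 min and 1118 at 120 min, summed over 8 transcript accessions (chr2:11471430-11554071). The normalized count was 832 at 0 min and then, in order of time, 885, 753, 1017, 883, 1049, 1040 and 906. The ratio to 0 min was lowest at 30 min (0.904). It reached 1.22 (1.11 to 1.34) at 45 min, 1.26 (1.14 to 1.39) at 75 min and 1.25 (1.14 to 1.37) at 90 min, and was 1.09 in the last library. The 3 highest ratios all came from libraries with a high Rn45s share, and the part of that share in them was not tested. None passed the test, the smallest exact p being 0.370. With total counts as the scale the sign of its 60 and 120 min ratios turned from above to below 0 min. In level it was at 1.32 rpkm at 0 min and 1.25 at 120 min. Its paralog Pfkfb2 was higher, at 5.26 rpkm at 0 min, and Pfkfb4 was at 5.92 rpkm at 0 min and fell to 2.37 at 120 min, a log2 ratio of -1.12 (p = 0.00179 in the exact negative binomial test). Pfkfb4 was the only 1 of 22 other glycolysis genes that was called at 60 or 120 min, and it was lower. At these times 2.36% and 6.7% of all genes with a count were called lower.

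Aldoa, Gapdh, Pgk1, Eno1 and Ldha act from the splitting of fructose 1,6-bisphosphate down to lactate, and they were the most abundant genes of the set before stimulation. At 0 min Aldoa (aldolase A, chr7:126795234-126800994) stood at 888 rpkm, Ldha (lactate dehydrogenase A, chr7:46842274-46855627) at 779, Pgk1 (phosphoglycerate kinase, chrX:106187100-106203699) at 627, Eno1 (alpha-enolase, chr4:150236708-150248879) at 353 and Gapdh (glyceraldehyde 3-phosphate dehydrogenase, chr6:125161852-125166467) at 209. These neighbours in level were all separated by more than their counting intervals, but the last 2 levels depend on the length used. Only 707 of the 1970 different 58-base words of Eno1 were unique to it, since 1263 are shared with Gm5506 (Eno1b), and reads of shared words were discarded. Divided by the longest annotated transcript the level of Eno1 was 123 rpkm and that of Gapdh 162. For Gapdh 1101 of 1363 words were unique and for Aldoa 1750 of 1820, while the other 7 genes had no shared word among the transcripts matched.

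**Figure D2:**
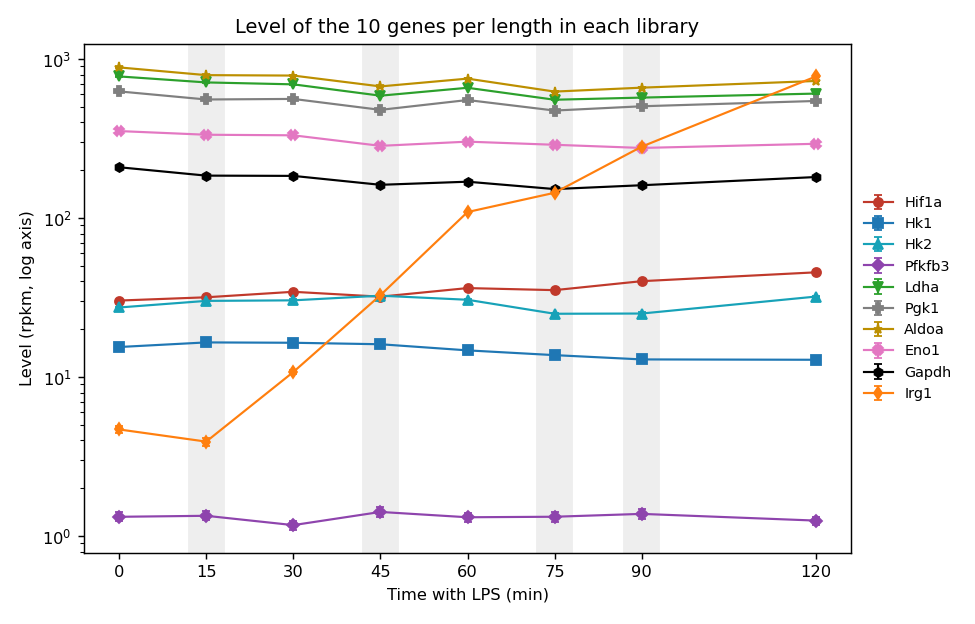
Level in rpkm (y axis, log scale) of each of the 10 genes in each library against time with LPS in min (x axis). Bars are Poisson 95% intervals, mostly smaller than the symbols, and grey bands mark the 4 libraries with a high Rn45s share. Irg1 climbs from 4.69 rpkm, between Pfkfb3 and Hk1, to 779 rpkm, above Ldha and Aldoa, while the order of the other 9 changes only for Hif1a and Hk2 at 45 min.

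Ldha, the step that turns pyruvate into lactate, had normalized counts of 160438 at 0 min and then, in order of time, 154105, 145891, 138159, 145383, 144122, 141391 and 143905. Aldoa had 174134, 163160, 157800, 150538, 158120, 154520, 155541 and 164561. In both genes every stimulated library lay below 0 min, and the lowest was that at 45 min, with ratios of 0.861 for Ldha and 0.864 for Aldoa. Pgk1, the first step that yields ATP, had 124303, 115842, 113683, 108294, 117201, 118610, 120018 and 124452 in the same order, so that the library at 45 min was the lowest and that at 120 min equalled 0 min within counting error (95% interval of the ratio 0.994 to 1.01). Gapdh, the step that reduces NAD, had 25811, 23951, 23226, 22782, 22364, 23696, 23819 and 25757, lowest at 60 min and at 120 min within counting error of 0 min. Eno1 had 27987, 27802, 26842, 25719, 25649, 28893, 26245 and 26770, lowest at 60 min and highest at 75 min. For both, the libraries at 45 and 60 min differed by less than their counting error.

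All 5 enzymes lay below 0 min in 5 libraries, those at 15 to 60 min and at 90 min, and the lowest log2 ratio among them was -0.22, for Ldha at 45 min. The median log2 ratio of the 5 was -0.20 at 45 min and -0.06 at 120 min, against -0.01 at both times over the expressed genes. No ratio of the 5 passed the test at any time, the smallest exact p being 0.539. Over the 8 libraries the Pearson correlations of their log2 values were all positive, 0.40 to 0.88 in the 10 pairs, and the points share the size factor of each library. As a share of all counts the 5 enzymes together went from 0.457% at 0 min to 0.333% at 75 min and 0.377% at 120 min, a share that also moves with Rn45s. Scaling by total counts lowers every log2 ratio by 0.10 at 60 min, 0.20 at 120 min and 0.33 at 75 min, so that Pgk1 was at -0.20 at 120 min on that scale and Ldha at -0.36, again not called.

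The spread over the libraries differed between the members. At 120 min 8 of the 10 genes, all of the glycolysis set, lay within ±0.5 of 0 min on the log2 scale, as did 70.9% of 10493 expressed genes with a ratio, and at 60 min it was 9 of 10 against 87.3%, both shares near those of all expressed genes. The SD of the log2 normalized count over the 8 libraries was 0.06 for Eno1, smaller than in all but 10.21% of the 10494 expressed genes, and 0.07 to 0.08 for Aldoa, Pgk1, Ldha and Gapdh (12.32% to 18.26%). It was 0.11 for Hk1 (34.22%), 0.15 for Hk2 (49.56%) and 0.17 for Pfkfb3 (56.81%), the last 2 being near the middle of the expressed genes. Hif1a was at 0.27 and Irg1 at 2.91. The SD includes counting error, which is larger in genes with fewer counts. Aldoa, Pgk1, Ldha, Eno1 and Gapdh averaged 23926 normalized counts (Gapdh) or more, far above the limit of 100 for expressed genes. The part of abundance in these ranks was not tested. Under the grouping of the study, in which a gene has an extremum when a later library passes the test against 0 min or against the last extremum, the 8 glycolysis genes were in the group without one, with 77.8% of the 10494 expressed genes. Hif1a and Irg1 were in the group whose first maximum comes at or after 60 min, with 9.33%, and both had it at 120 min, the last library.

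**Figure D3:**
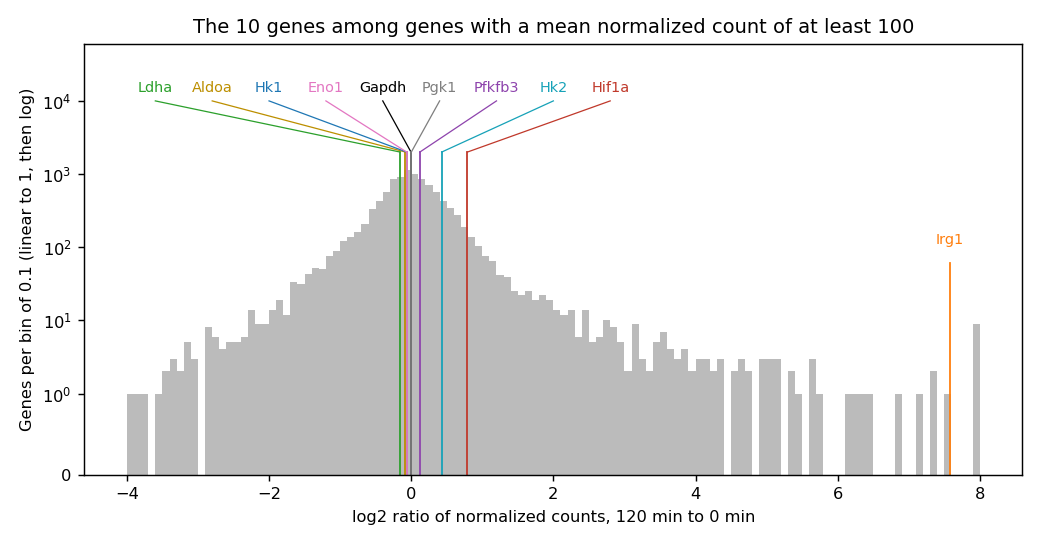
Number of genes (y axis, linear to 1 and then logarithmic) per bin of 0.1 of the log2 ratio of normalized counts, 120 min to 0 min (x axis), over 10493 expressed genes with a count in both libraries. Values beyond -4 or 8 are counted in the outermost bins, and coloured lines mark the 10 genes. The 8 glycolysis genes lie at the centre between -0.16 and 0.43, Hif1a at 0.79 on the right flank and Irg1 at 7.58 near the far end.

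Calls in the pathways on either side of the 10 genes are given beside the shares of all genes with a count. For these lists and those below, the shares were 3.43% higher and 2.36% lower at 60 min. At 120 min they were 7.63% and 6.7%. No list was tested as a set. Slc2a1, which encodes the glucose transporter GLUT1, rose from 34.4 rpkm at 0 min to 60.6 at 60 min and 79.0 at 120 min, a log2 ratio of 0.91 (exact negative binomial p = 0.0092) at 60 min and 1.40 (p = 7.56e-05) at 120 min. Its normalized count was 12338 at 0 min and then, in order of time, 11129, 13446, 16437, 23234, 22756, 24640 and 32614. The 9 glucose and lactate transport genes included other glucose transporters, and Slc2a1 was the only 1 of them called at 60 or 120 min. Among 22 other glycolysis genes the median log2 ratio of the 15 expressed ones was -0.10 at 60 min and -0.15 at 120 min. Pkm, the pyruvate kinase at the end of the pathway, was at 3514 rpkm at 0 min and 2984 at 120 min, with a log2 ratio of -0.03. Some paralogs of the members had few or no counts: Ldhb had 1 count at 0 min and none at 120 min, and Gapdhs and Pgk2 had none in either. Others were expressed: Aldoc was at 34.4 rpkm at 0 min and 24.4 at 120 min, Eno3 at 119 and 73.1 and Eno2 at 1.19 and 1.01. None of Aldoc, Eno3 and Eno2 was called at 60 or 120 min, but Eno2 was called lower at 75 min (log2 ratio -0.89).

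Further down, 12 genes of pyruvate dehydrogenase, its kinases and phosphatases and the pyruvate carrier gave none called at 60 min and 2 called lower at 120 min. These were Pdk2, a kinase that switches the complex off (81 counts at 0 min and 27 at 120 min, log2 ratio -1.66), and Pdp1, a phosphatase that switches it on (-0.78). None of 21 TCA cycle genes was called at either time, and the median log2 ratio was -0.05 and -0.07. Of 8 pentose phosphate genes, Shpk, the sedoheptulose kinase, fell to a log2 ratio of -0.83 at 60 min and -1.52 at 120 min (282 counts at 0 min and 104 at 120 min), and no other was called. In 22 genes known as HIF-1 targets in other settings, 6 were called higher and none lower at 60 min, and 8 higher and 2 lower at 120 min, with a median log2 ratio of 0.13 and 0.10 over the 19 expressed ones. Of all genes with a count, 3.43% and 7.63% were called higher at these times, and 2.36% and 6.7% lower. The targets called higher at 120 min included Il1b (log2 ratio 11.46), the cytokine interleukin 1 beta. Another was Nos2 (5.70, from 5 to 275 counts), the inducible nitric oxide synthase. The 2 called lower at 120 min, Ddit4 (-1.15) and Ankrd37 (-1.01), lie outside the rule by which genes are named. Ddit4 was among the 6 called higher at 60 min (log2 ratio 2.21), so it is counted in both directions. Il1b and Nos2 are also known targets of NF-kappaB.

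**Figure D4:**
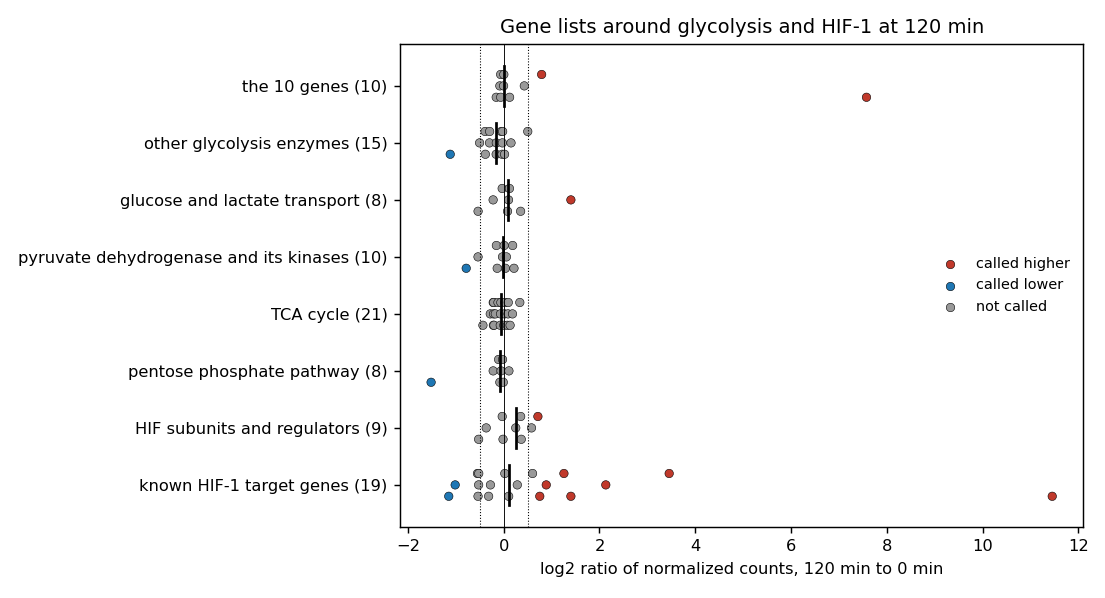
log2 ratio of normalized counts, 120 min to 0 min (x axis), for the expressed genes of each list (y axis, their number in brackets). Each point is a gene, coloured by whether it was called higher, lower or not, black bars are medians and dotted lines mark ±0.5. Medians lie between -0.15 and 0.25 in all lists. Slc2a1, Pdk1 and Egln1 are each in the target list and in 1 other list.

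Irg1 (RefSeq NM_008392, chr14:103047012-103056573) went from a minor to a leading transcript within the time course. Its raw counts were 1578 at 0 min and then, in order of time, 1246, 3862, 9502, 37726, 37174, 76483 and 317819. Normalized, these were 1350, 1186, 3162, 10732, 33591, 52348, 97103 and 257578. Only the library at 15 min lay below 0 min, at a ratio of 0.878 (0.815 to 0.947) that was not called (exact p = 0.597), and every later library lay above the one before. The ratio to 0 min was 2.34 (2.21 to 2.49) at 30 min, 7.95 (7.54 to 8.39) at 45 min, 24.9 (23.7 to 26.2) at 60 min, 38.8 (36.9 to 40.8) at 75 min, 71.9 (68.4 to 75.7) at 90 min and 191 (182 to 201) at 120 min.

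The rise was not even. Between successive libraries Irg1 went up 2.67-fold from 15 to 30 min, 3.39-fold to 45 min, 3.13-fold to 60 min, 1.56-fold to 75 min, 1.85-fold to 90 min and 2.65-fold over the last 30 min. The exact negative binomial test passed at each of these steps except that from 60 to 75 min (p = 0.0733). That step leads from a low to a high Rn45s library, and in cpm it was from 280 to 371. Within the low Rn45s libraries Irg1 rose 2.34-fold from 0 to 30 min, 10.6-fold from 30 to 60 min and 7.67-fold from 60 to 120 min. Within the high ones it rose 9.05-fold from 15 to 45 min, 4.88-fold from 45 to 75 min and 1.85-fold from 75 to 90 min, and all these steps passed the test (the largest p, 0.011, was at the last). The call at 30 min had p = 0.000542 and an adjusted p of 0.104, and at 45 min and later the adjusted p was at most 1.02e-12 (Benjamini-Hochberg over all genes with a count, exact negative binomial test).

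Per length, Irg1 was at 4.69 rpkm (4.46 to 4.93) at 0 min, 109 at 60 min and 779 (776 to 781) at 120 min. It ranked 7231 of 19788 genes at 0 min, 650 at 60 min and 94 at 120 min, where it was above Aldoa (729 rpkm, rank 101) and Ldha (608 rpkm, rank 116). Its ratio in rpkm to Ldha went from 0.00602 at 0 min to 0.165 at 60 min and 1.28 at 120 min. In the last library it took 0.2% of all counts, when the 5 lower enzymes together took 0.377%. Its log2 ratio of 7.58 at 120 min was number 11 from the top among the 10494.

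The genes whose log2 normalized counts followed those of the members most closely were found over the 8 libraries among 10493 others, as a description in which all points share the libraries and their scale. For Irg1 these were Csf3, the granulocyte colony-stimulating factor (Pearson r = 0.999, log2 ratio 11.87 at 120 min), Ehd1, an endosomal ATPase (0.999, 2.97), and Plaur, the urokinase receptor (0.998, 2.78). The sizes of the 3 rises differed from that of Irg1 although the shapes were alike, and 51 genes had r above 0.99. Those of Hif1a included Tlk2, a chromatin kinase (r = 0.997, log2 ratio 0.92), and Ercc6, a DNA repair factor (0.995, 1.30), with 24 genes above 0.99. The nearest genes were less close for Hk2 (Setd1a 0.974, Cpne8 0.952 and Zfp781 0.945), Pfkfb3 (Atp6v0c-ps2 0.954, Rab7 0.952 and Actr2 0.916) and Ldha (Galt 0.983, Nabp2 0.978 and Mpnd 0.973), and none reached 0.99. None of the 8 glycolysis genes was among the 3 genes nearest to Hif1a or Irg1. With 3 places among 10493 genes, this alone says little about them. Between the 2 called members r was 0.96, and between Hif1a and the glycolysis genes it ranged from -0.65 for Ldha to 0.54 for Pfkfb3.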

How the data were processed

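RNA of 8 RAW264.7 cultures, 1 for each time, was sequenced. The authors deposited a single table of raw counts for 23143 gene symbols, with no normalization. By the methods, ribosomal RNA was removed with Ribo-Zero, libraries were made with a directional kit, Bowtie aligned the 58-base reads to the RefSeq transcripts of mm10, and reads that fit more than 1 gene symbol were discarded, which lowers the counts of genes with near copies. Whether counting used the strand is not given in the sources used here. In the RefSeq table, 5 members (Hif1a, Hk1, Pfkfb3, Ldha and Irg1) overlap 6 long non-coding RNA genes, none of them in the count table. The submitters' processing notes name CASAVA 1.8.2 and DESeq 1.10.1.

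Size factors, a blind parametric dispersion over all 8 libraries and exact negative binomial tests of 2 libraries, with p doubled from the smaller tail, were computed in Python 3.11.15 with scipy 1.17.1, numba 0.67.0 and numpy 2.4.6, following the DESeq settings of the methods. A quasi-likelihood fit in edgeR would have no residual degrees of freedom here. Tested on simulated data (120 min against 0 min, 23143 genes, drawn with a dispersion of 0.005, below the 0.0287 fitted to the real counts at high expression), the code called all 100 genes raised and all 100 lowered 4-fold, and 21 of 10294 unchanged ones. Ratios carry exact binomial and rpkm exact Poisson 95% intervals. For rpkm, unique 58-mers were counted in GENCODE vM21 transcripts matched by RefSeq accession (22569 genes). Alternatives used edgeR 4.0.16 and DESeq2 1.42.0 (R 4.3.3).

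Named were all members, their paralogs, neighbouring steps (Slc2a1, Pkm, Arnt, Egln1), up to 3 called genes per list with the largest 120 min ratio, and the 3 genes most correlated with each of 5 members; some genes that this rule names are not reported here. Members and lists were chosen with earlier results of these data known. The microarrays of polysome fractions were not analysed here. At these depths a count of 0 allows up to 0.0299 cpm.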

Additional observations from a re-analysis of the deposited data

How the results depend on the processing

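The calls of the 10 genes at 7 times and in 2 directions were the same in 123 of 132 comparisons with alternatives. These include the calls in the lower direction and those at 15 min, where no member was called in any setting, so the share says little about the calls that were made. The number called higher at 120 min was 1 in place of 2, with Hif1a lost and Irg1 left, with total counts as the scale, with total counts without Rn45s, with Benjamini-Hochberg adjustment and with a log2 limit of 1. It was 2 in place of 1 at 90 min, with Hif1a added, with the dispersion trend of DESeq2, with no p-value limit and with a mean of at least 10 in the dispersion fit, and also 2 at 75 min with no p-value limit. With Benjamini-Hochberg adjustment it was 0 at 30 min, where Irg1 was lost. The log2 ratios at 60 and 120 min were recomputed under 3 other scales, which moved them by up to 0.20: 16 of 60 such values stayed within the counting interval, no called one turned its sign, and 9 uncalled ones of Hk1, Pfkfb3 and Pgk1 did. All 20 values with a pseudocount of 1 stayed within it. At the other times total counts shift every ratio by up to 0.33, and Hk1 and Hk2 then lie below 0 min at 75 and 90 min and Eno1 at 75 min. The pattern group of Hif1a was the one without an extremum with total counts, with adjustment and with a log2 limit of 1, and that of Irg1 was the same in all alternatives. Leaving out any 1 library between 15 and 90 min kept both groups, with the maximum at 120 min, and without the library at 120 min it lay at 90 min. The level of Eno1 at 0 min fell from 353 to 123 rpkm with the longest transcript as the length. No paired analysis was possible because each group has 1 library.

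With 1 library per time point, culture, library preparation and time cannot be told apart, and the test takes its spread from all 8 libraries, LPS included. Counting error of the ratios to 0 min, at depths of 100250892 counts or more, is largest for Pfkfb3. It is next largest for Irg1, which had 1578 counts at 0 min and 1246 at 15 min, and small for the other genes. RNA levels do not show the amount or activity of the proteins.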
